A study of Mus musculus with 6 samples.

Results

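Notch receptors, ligands and targets were examined at the transcript level in MEFs, the fibroblasts that are cultured from mouse embryos. The 10 genes are the receptors Notch1, Notch2, Notch3 and Notch4, the ligands Jag1, Jag2 and Dll1, and the target genes Hes1, Hey1 and Heyl. They were found by matching the Ensembl identifiers of the deposited table to mouse GENCODE symbols, and all 10 were among its 56953 genes. The RNA sequencing data comprised 3 libraries labelled WT and 3 labelled GαqKO, each from MEFs grown in medium with serum and with no treatment named in the labels. The study describes the second line as Gαq/11 knock-out cells that it calls GαqKO, and 3 biological replicates per genotype. Its methods name a single source of WT and of GαqKO MEFs and no further line of either, so genotype and line cannot be told apart, and the p-values measure only the spread between libraries of those cells. Neither the passage nor the age of the embryos is given in the sources used here.

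Notch receptors are single-pass membrane proteins that are activated by ligands of the Jagged and Delta-like families on a neighbouring cell. Binding leads to cleavage by an ADAM protease and then by γ-secretase, and the released intracellular domain enters the nucleus, where it converts the DNA-binding protein RBPJ from a repressor into an activator. HES and HEY genes, which encode basic helix-loop-helix repressors, are the classical targets. In fibroblasts and mural cells the pathway is known for its part in differentiation and in contacts with other cells.

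In the GαqKO libraries the ligand Jag2 was at 2.52% of its WT level and the receptor Notch1 at 52.2%, the target Hes1 was 2.26-fold lower, and the target Hey1 was 6.07-fold higher. These percentages compare mean normalized counts, and these folds come from limma on log2(normalized count + 1). Jag1 and Notch2 rose by smaller amounts. Of the 10 members, 8 passed the filter on low values (10 or more normalized counts in 3 or more of the libraries), and Dll1 and Heyl did not. Of those 8, Notch2, Jag1 and Hey1 were higher and Notch1, Jag2 and Hes1 lower at an adjusted p under 0.05 (limma, Benjamini-Hochberg over 14096 genes). The 3 higher members are 37.5% of those tested, beside 31.8% of all tested genes, and the 3 lower members are 37.5%, beside 34.1% of all tested genes. Together 6 of the 8 passed, beside 65.8% of all tested genes in either direction, and 5 of the 8 had groups that did not overlap, beside 69.6%. These shares are near those of the whole table, so the number of members that changed is not in itself a result about the pathway. The median log2 fold change was -0.13 over the 8 members and -0.01 over all tested genes. With a log2 fold change beyond 1 in either direction as well, the study's thresholds, Hey1 was the single higher member (10.2% of all tested genes) and Jag2 and Hes1 were the lower ones (10.5%), together 3 of 8 beside 20.7% in either direction.

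**Figure D1:**
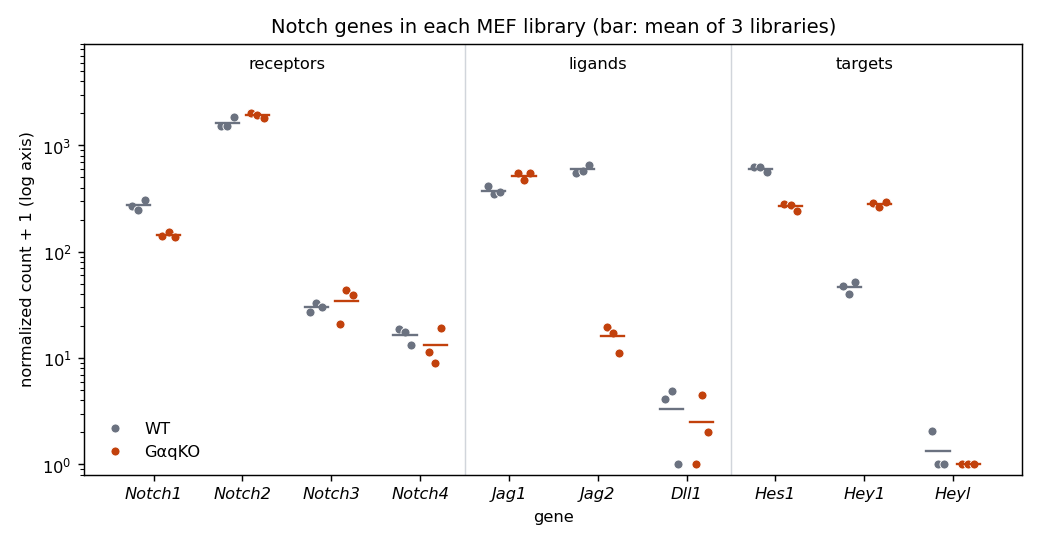
Normalized counts of each member in each library, plotted as normalized count + 1 on a log axis, with WT and GαqKO libraries side by side and a bar at the mean of 3 libraries. The groups stand apart for Notch1, Jag1, Jag2, Hes1 and Hey1, overlap for Notch2, Notch3 and Notch4, and lie at or near 0 for Dll1 and Heyl.

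Jag2 and Jag1 moved in opposite directions, and the sequence just upstream of each is shown because Jag2 changed most among the members while the other Jagged ligand rose. This pair was chosen after its values were seen. The sequences are the 250 bases before the RefSeq start of each gene in build GRCm38.p6, on the gene's own strand from 5′ to 3′, at chr2:137116521-137116770 (minus strand) for Jag1 and chr12:112929496-112929745 (minus strand) for Jag2. Capitals mark CpG dinucleotides.
Jag1: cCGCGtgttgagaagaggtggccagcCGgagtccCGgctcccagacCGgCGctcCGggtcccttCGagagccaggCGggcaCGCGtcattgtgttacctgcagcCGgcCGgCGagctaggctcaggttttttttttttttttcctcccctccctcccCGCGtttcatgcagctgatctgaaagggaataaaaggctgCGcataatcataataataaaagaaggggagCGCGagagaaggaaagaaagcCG
Jag2: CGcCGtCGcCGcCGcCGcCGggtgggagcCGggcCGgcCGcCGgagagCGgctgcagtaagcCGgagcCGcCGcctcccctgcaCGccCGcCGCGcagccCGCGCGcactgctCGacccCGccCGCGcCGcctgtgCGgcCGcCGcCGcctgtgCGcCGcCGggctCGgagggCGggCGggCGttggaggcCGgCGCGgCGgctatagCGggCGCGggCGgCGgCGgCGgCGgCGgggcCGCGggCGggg
The Jag1 window held 20 CpG dinucleotides and was 57.2% G and C, and the Jag2 window held 54 and was 87.2% G and C. The median over 32851 promoters of this table was 6 CpG dinucleotides and 52.4% G and C. Only 5 promoters, that of Jag2 included, held as many CpG dinucleotides as that of Jag2 or more. For Jag1 the number was 5896, its own promoter included. The windows of Notch1, Notch2, Notch3 and Notch4 held 16, 34, 17 and 4 CpG dinucleotides, and those of Dll1 held 21 and 13. A link between CpG content and the changes was not tested. No DNA methylation was measured here. Promoter entries were matched for 7 of the 10 members, namely the 4 receptors, Jag1, Jag2 and Dll1. The RBPJ core motif TGGGAA, searched on both strands, was in none of their windows and in 21.6% of all promoters. The E box CACGTG was also in none and in 6.02% of all promoters. The N box CACNAG, searched on both strands, occurred once in each of Notch1 and Notch2 and at 2 places in Notch3, and was in 36.7% of all promoters. A match or its absence is a description of these letters in this window only.

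The libraries held similar totals, with 11392429 to 11483486 normalized counts each, and 9853000 to 12229175 reads in the 5 libraries whose reads could be recovered. Gna11, the gene of Gα11, was 2148 ± 29.0 normalized counts in WT and 451.6 ± 28.7 in GαqKO libraries (SD, n = 3 each). Gnaq, the gene of Gαq, was not lower in the libraries labelled GαqKO, at 1926 ± 36.0 against 1691 ± 48.5 normalized counts (SD, n = 3 each), and counts over a whole gene cannot tell an intact transcript from a disrupted one. At the protein level the study reports that GαqKO MEFs lack Gαq, by Western blot and by immunofluorescence. The Y-linked gene Ddx3y was 1197 ± 52.3 normalized counts in WT (SD, n = 3) and listed at 0 in all 3 GαqKO libraries, and Xist was listed at 0 in all 6. All exon bases of Xist fall within other annotated genes, with 1.08% inside genes on its own strand. The strand and overlap settings of the counting are not given, so the 0 of Xist is uncertain to that extent. All 10 fibroblast markers had groups that did not overlap, beside 69.6% of all tested genes, but in both directions, with 6 higher and 4 lower in every GαqKO library. Their sum, mostly Vim, Col1a1 and Col1a2, was 73257 to 79175 normalized counts in WT and 56303 to 58773 in GαqKO libraries, while Pdgfra went from 19.6 ± 2.23 to 2320 ± 42.0 and Dcn from 32.1 ± 3.00 to 1663 ± 53.8 (SD, n = 3 each). In WT libraries the fibroblast markers Thy1, at 0.696 ± 1.21 (SD, n = 3), and Lum, listed at 0, were at or under 3 counts. In GαqKO libraries Thy1 was 64.9 ± 10.1 (SD, n = 3), and Lum had 3.76, 1.16 and 4.03, near that floor. Lum is among the 6 higher markers but did not pass the filter and was not tested. These and the next marker genes were named after their values were seen. Of the other cell types, 7 mural markers summed to 682 to 810.2 in WT and 28.2 to 39.3 in GαqKO libraries, nearly all of it Mcam (734 ± 62.9 and 7.62 ± 2.72, SD, n = 3 each). The other 6 mural markers overlapped, and Kcnj8 was at or under 3 counts throughout. Likewise 6 epithelial markers summed to 515 to 541 and 10.1 to 23.1, mostly Krt14 and Cdh1 in WT, with Krt5 at or under 3 counts. Of the 6, 4 had groups that did not overlap, all lower in GαqKO libraries, beside 69.6% of all tested genes. Among those 4, Krt8 and Krt18 did not pass the filter and were not tested. The 5 macrophage markers summed to 208.7 to 219.5 and 437.6 to 464.8, where Cd14 rose (102 ± 7.01 and 364.5 ± 3.21, SD, n = 3 each), Cd68 fell (93.0 ± 9.91 and 66.9 ± 12.7, SD, n = 3 each) and the other 3 overlapped. The 7 endothelial markers summed to 12.6 to 29.2 and 20.1 to 35.8, with 1 not overlapping (Kdr, which was not tested) and Tie1 at or under 3 counts throughout. The part of these marker differences in the Notch results was not tested, and in bulk RNA fewer cells of a type cannot be told apart from less RNA per cell.

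Among the receptors, Notch1 fell, Notch2 rose slightly, and Notch3 and Notch4 did not pass the test. Notch1 (ENSMUSG00000026923.16), the broadly expressed receptor that in skin and vessels sets cell fate, lies at chr2:26347915-26406675 (GRCm39, minus strand). It had 270.4, 249 and 305 normalized counts in WT replicates 1, 2 and 3, and 139.9, 153 and 138 in GαqKO replicates 1, 2 and 3. Every GαqKO library was below every WT library. The mean was 275 ± 28.6 normalized counts in WT and 144 ± 7.96 in GαqKO libraries (SD, n = 3 each), which is 52.2% of WT and a log2 fold change of -0.93 (standard error, SE, 0.109, 95% interval -1.16 to -0.69, adjusted p = 4.68e-06, limma). The estimate lay just short of the study's fold threshold. Of its exon bases, 63.8% lie inside the spans of genes on the other strand. The partner with counts, the long non-coding RNA 0610009E02Rik, had 29.2, 38.9 and 40.7 normalized counts in WT libraries. In GαqKO libraries it had 44.1, 42.8 and 54.4, each above every WT value. Its part in the Notch1 values was not tested. The libraries came from a stranded kit, but the strand setting of the counting is not given in the sources used here, so the Notch1 level is uncertain to that extent.

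Notch2 (ENSMUSG00000027878.12; chr3:97920800-98057677, plus strand), a receptor prominent in mesenchymal cells, had the highest level of the 4 per kilobase of transcript. It had 1529.7, 1533 and 1840.3 normalized counts in WT and 2012, 1923 and 1829 in GαqKO libraries. WT replicate 3 was above GαqKO replicate 3, so the groups overlapped. The mean was 1634 ± 178 in WT and 1921 ± 91.8 in GαqKO libraries (SD, n = 3 each), with a log2 fold change of 0.24 (SE 0.068, 95% interval 0.09 to 0.38, adjusted p = 0.00722, limma). This rise was lost when limma was run without a trend in the spread (adjusted p = 0.0703). It was small beside the rest of the table, where 67.5% of tested genes changed by more in either direction.

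Notch3 (ENSMUSG00000038146.9; chr17:32339794-32385893, minus strand), the receptor characteristic of mural cells, had 26.1, 32.1 and 29.5 normalized counts in WT and 19.7, 42.8 and 38.3 in GαqKO libraries. GαqKO replicate 1 was below and replicates 2 and 3 were above all WT libraries. Its log2 fold change was 0.13 (95% interval -0.51 to 0.77, adjusted p = 0.721, limma), an interval that allows changes of either sign. Without GαqKO replicate 1 the value was 0.46 and without GαqKO replicate 2 it was -0.08, and neither passed the test. Of its exon bases, 43.9% lie inside Gm17276 on the other strand, which was listed at 0 in every library. Notch4 (ENSMUSG00000015468.15; chr17:34783220-34807477, plus strand), a receptor best known from endothelium, had 17.8, 16.5 and 12.2 normalized counts in WT and 10.3, 8.1 and 18.1 in GαqKO libraries. GαqKO replicate 3 was the highest of the 6 and the groups overlapped. Its log2 fold change was -0.38 (95% interval -1.18 to 0.42, adjusted p = 0.383, limma). At these levels a change of Notch3 or Notch4 within those intervals was not detectable.

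Among the ligands, Jag2 fell to a trace, Jag1 rose, and Dll1 was barely read. Jag2 (ENSMUSG00000002799.7; chr12:112871421-112893437, minus strand), a Jagged ligand of the Notch receptors, had 552, 579.9 and 657.5 normalized counts in WT. It had 18.8, 16.2 and 10.1 in GαqKO libraries, each far below the lowest WT library. The mean went from 597 ± 54.5 to 15.0 ± 4.47 normalized counts (SD, n = 3 each), which is 2.52% of WT. The log2 fold change was -5.26 (SE 0.199, 95% interval -5.69 to -4.83, adjusted p = 4.05e-11, limma), and 2.01% of tested genes had a larger change in either direction. Jag1 (ENSMUSG00000027276.8; chr2:136923373-136958693, minus strand), the other Jagged ligand and itself a known Notch target in some cells, had 418, 346 and 361 normalized counts in WT and 546.5, 468 and 546 in GαqKO libraries. All GαqKO libraries were above all WT libraries. The mean rose from 375 ± 37.8 to 520.2 ± 45.0 (SD, n = 3 each), with a log2 fold change of 0.47 (SE 0.089, 95% interval 0.28 to 0.66, adjusted p = 0.000356, limma), and 43.4% of tested genes had a larger change. Among the genes that were counted, none overlaps Jag1, and only a microRNA listed at 0, Mir6941, overlaps Jag2. Dll1 (ENSMUSG00000014773.14; chr17:15587276-15597134, minus strand), a Delta-like ligand, had 3.1, 3.9 and 0 normalized counts in WT and 0, 3.5 and 1.0 in GαqKO libraries. It was not tested, and 30.3% of its exon bases lie inside Fam120b on the other strand. Fam120b had 709, 718 and 749 normalized counts in WT and 639, 610 and 644.5 in GαqKO libraries. The strand setting of the counting is not given, so the Dll1 level is uncertain to that extent.

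**Figure D2:**
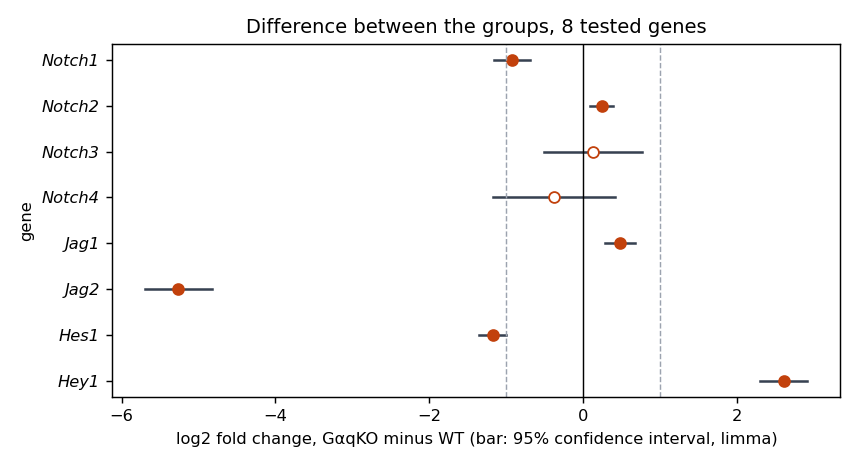
Log2 fold change of the 8 tested members, GαqKO minus WT, on log2(normalized count + 1), with 95% intervals from limma; dashed lines mark a log2 fold change of -1 and 1. Jag2 lies at -5.26 and Hey1 at 2.60, Hes1 at -1.18 and Notch1 at -0.93, and the intervals of Notch3 and Notch4 cross 0.

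The targets went in different directions. Hes1 (ENSMUSG00000022528.9; chr16:29882134-29886643, plus strand), the repressor most often used as a readout of Notch activity, had 628, 624 and 563 normalized counts in WT and 283, 276 and 242 in GαqKO libraries. The groups stood well apart. The mean was 605 ± 36.3 normalized counts in WT and 267 ± 22.1 in GαqKO libraries (SD, n = 3 each). The log2 fold change was -1.18 (SE 0.083, 95% interval -1.36 to -0.9998, adjusted p = 2.46e-08, limma), a 2.26-fold fall of normalized count + 1. Hey1 (ENSMUSG00000040289.9; chr3:8726956-8732385, minus strand), a related repressor that is also known to answer BMP and TGF-β signals, had 47.0, 38.9 and 50.9 normalized counts in WT. It had 285.5, 264 and 292 in GαqKO libraries, where the lowest value was several times the highest WT value. The mean rose from 45.6 ± 6.14 to 280.4 ± 14.9 (SD, n = 3 each). The log2 fold change was 2.60 (SE 0.142, 95% interval 2.30 to 2.91, adjusted p = 1.79e-09, limma), a 6.07-fold rise of normalized count + 1. A larger change in either direction was seen in 7.61% of tested genes for Hey1 and in 17.6% for Hes1. None of the other genes that were counted overlaps either of them. Heyl (ENSMUSG00000032744.5; chr4:123127349-123143682, plus strand), the HEY family member typical of mural cells, had 1.0 normalized count in WT replicate 1 and was listed at 0 in the other 5 libraries. It was not tested, and both groups were at or under the floor of 3 counts per library.

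Levels of different genes were compared as normalized counts per kilobase of the canonical transcript. In WT libraries the order was Hes1 (396 per kilobase), Notch2 (155), Jag2 (116), Jag1 (65.3), Notch1 (29.0), Hey1 (11.7), Notch3 (3.62), Notch4 (2.34), Dll1 (0.575) and Heyl (0.0765). The ranges of neighbours in this order did not overlap, except those of Dll1 and Heyl. In GαqKO libraries Notch2 (182 per kilobase) and Hes1 (175) led with overlapping ranges, followed by Jag1 (90.6), Hey1 (72.2) and Notch1 (15.1). Below them Notch3 (4.16), Jag2 (2.91) and Notch4 (1.84) overlapped from neighbour to neighbour, and Dll1 (0.367) and Heyl (0) overlapped as well. Jag2 stood above Jag1 in WT and among the least abundant receptors in GαqKO libraries.

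Within each role the make-up of the listed members differed between the groups. Shares were taken over the members of a role only, so other ligand and target genes were left out. Among those left out, Hes6 (134 per kilobase in WT and 103 in GαqKO libraries) stood above Hey1. Dlk2 (374 and 684) stood above Jag1. Notch2 made up 80.8% to 82.2% of receptor transcripts per kilobase in WT and 88.7% to 91.0% in GαqKO libraries, and Notch1 14.7% to 15.9% and 7.04% to 7.85%. Among the ligands Jag1 made up 33.1% to 40.3% in WT and 95.3% to 97.7% in GαqKO libraries. Among the targets Hes1 made up 96.6% to 97.6% in WT and 67.8% to 72.7% in GαqKO libraries, and Hey1 2.39% to 3.43% and 27.3% to 32.2%. A change in any member moves the shares of the others in its role, so these shares restate the values above on a common scale and were not tested. Log2 ratios were taken of normalized count + 1, with no correction for length. Jag1 over Jag2 averaged -0.67 in WT and 5.06 in GαqKO libraries, Hey1 over Hes1 averaged -3.71 and 0.07, and Notch2 over Notch1 averaged 2.57 and 3.73.

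**Figure D3:**
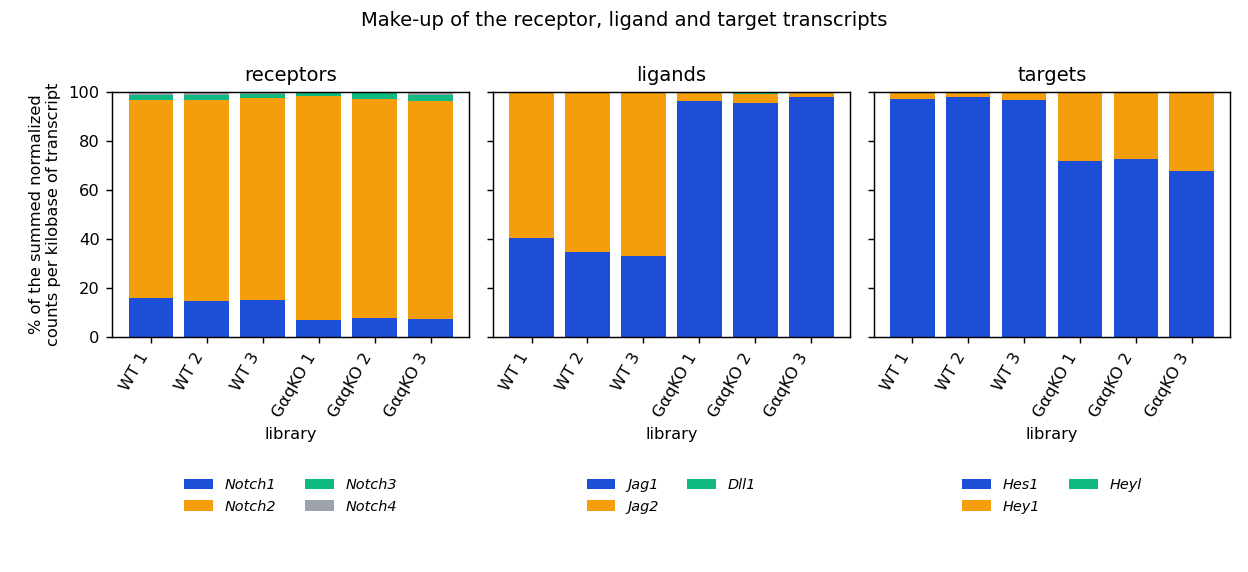
Share of each member, in percent, of the summed normalized counts per kilobase of the members in its role, in each of the 6 libraries, one stacked bar per library. Other ligand and target genes are left out. Jag2 holds 59.3% to 66.9% of the ligand bars in WT and 2.01% to 3.68% in GαqKO libraries, and Hey1 widens in the target bars of GαqKO libraries.

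The wider pathway was read from a list of 56 other genes in 7 roles, of which 44 passed the filter. At an adjusted p under 0.05 (limma), 16 were higher and 20 lower in GαqKO libraries, which is 36.4% and 45.5% of those tested beside 31.8% and 34.1% of all tested genes. The remaining 8 did not pass the test. With the fold threshold, 6 were higher (Dlk1, Dner, Aph1b, Rbpj, Tle1 and Neurl1b), beside 10.2% of all tested genes, and Dtx4 was lower, beside 10.5%. Dlk1 and Dner reached 10 normalized counts in GαqKO libraries only and so could enter the test only as higher genes, and without them, when all 6 libraries had to reach 10, there were 4 higher. In each role the gene with the most normalized counts over the 6 libraries is also named, a choice made without regard to transcript length. The median log2 fold change of the 44 was -0.12, close to that of the members.

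In the nucleus, Rbpj, which encodes the DNA-binding partner of the Notch intracellular domain, had 237, 257 and 239 normalized counts in WT and 1013, 934 and 980.8 in GαqKO libraries. The 3.98-fold rise had a log2 fold change of 1.99 (SE 0.068, adjusted p = 1.57e-11, limma). Of the 8 coactivator genes with Rbpj, 4 rose (50%, beside 31.8% of all tested genes), 2 fell (25%, beside 34.1%) and 2 did not pass, and the acetyltransferase gene Ep300 had a log2 fold change of -0.10 (adjusted p = 0.172, limma). Of the 8 corepressor genes, 2 rose (25%, beside 31.8%), 5 fell (62.5%, beside 34.1%) and 1 did not pass. Tle1, a Groucho-type corepressor with which HES proteins act, rose (338 ± 34.9 normalized counts in WT and 826 ± 76.4 in GαqKO libraries, SD, n = 3 each; log2 fold change 1.29, adjusted p = 1.51e-08, limma), and Ctbp1, another corepressor gene, rose by 0.17 on the log2 scale (adjusted p = 0.00279, limma).

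At the membrane, 3 of the 6 other ligand genes were tested, and Dlk1 and Dner passed the filter only through the group where they are high, so their number supports nothing. Dlk1, a Delta-like protein that lacks the receptor-binding domain of the classical ligands and is known from fat cell precursors, had 0 normalized counts in each WT library and 1469.6, 1542 and 1399.8 in GαqKO libraries. Against a floor of 3 counts per library this was at least 490.2-fold higher, where the floor covers counting error only. Dlk2, its relative, rose (579 ± 19.96 normalized counts in WT and 1059 ± 26.9 in GαqKO libraries, SD, n = 3 each; log2 fold change 0.87, adjusted p = 8.99e-09, limma). Dner, a neuronal Delta-like protein, had 9.4, 0 and 7.1 in WT and 18.8, 25.4 and 28.2 in GαqKO libraries, with a log2 fold change of 2.50 (adjusted p = 0.00611, limma) that was 1.43 without WT replicate 2 and lost its call without a trend (adjusted p = 0.0593).

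Of the 10 protease genes, 3 rose (30%), 4 fell (40%) and 3 did not pass, shares near the 31.8% and 34.1% of all tested genes. Adam10, which encodes the sheddase that makes the first ligand-dependent cut, fell from 3396 ± 87.5 to 2308 ± 63.0 normalized counts (SD, n = 3 each; log2 fold change -0.56, adjusted p = 6.33e-08, limma). Aph1b, a γ-secretase subunit gene, rose from 99.4 ± 13.2 to 235 ± 15.5 (SD, n = 3 each; log2 fold change 1.24, adjusted p = 1.18e-06, limma), and its split from the closely related Aph1c depends on how shared reads were counted. Of the 4 tested glycosyltransferase genes, 2 rose (50%, beside 31.8%), 1 fell (25%, beside 34.1%) and 1 did not pass, and Pofut1, which encodes the enzyme that adds O-fucose to Notch, rose by 0.48 on the log2 scale (adjusted p = 1.39e-06, limma).

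Of the 10 tested genes for endocytosis and ubiquitin ligation, 2 rose (20%, beside 31.8% of all tested genes), 7 fell (70%, beside 34.1%) and 1 did not pass. Neurl1b, a Neuralized-type ubiquitin ligase gene that acts on ligands, had 163, 204 and 216 normalized counts in WT and 1029, 1026 and 989 in GαqKO libraries (log2 fold change 2.39, SE 0.094, adjusted p = 6.25e-11, limma). Dtx4, a Deltex-type ligase gene, had 335, 333 and 394 in WT and 76.1, 69.4 and 70.5 in GαqKO libraries (log2 fold change -2.28, SE 0.117, adjusted p = 8.85e-10, limma). Mib1, the ligase gene that drives ligand endocytosis, had a log2 fold change of -0.15 (adjusted p = 0.00975, limma). Among the other HES, HEY and feedback genes a single one of 7, Hes6, passed the filter, and it fell from 181 ± 22.1 to 139 ± 11.8 normalized counts (SD, n = 3 each; log2 fold change -0.37, adjusted p = 0.019, limma). Below the filter, and chosen after their values were seen, Hey2 had 8.4, 6.8 and 5.1 normalized counts in WT and 0 in each GαqKO library, and the feedback gene Nrarp, all of whose exon bases fall within other annotated genes, was listed at 0 in all 6 libraries.

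**Figure D4:**
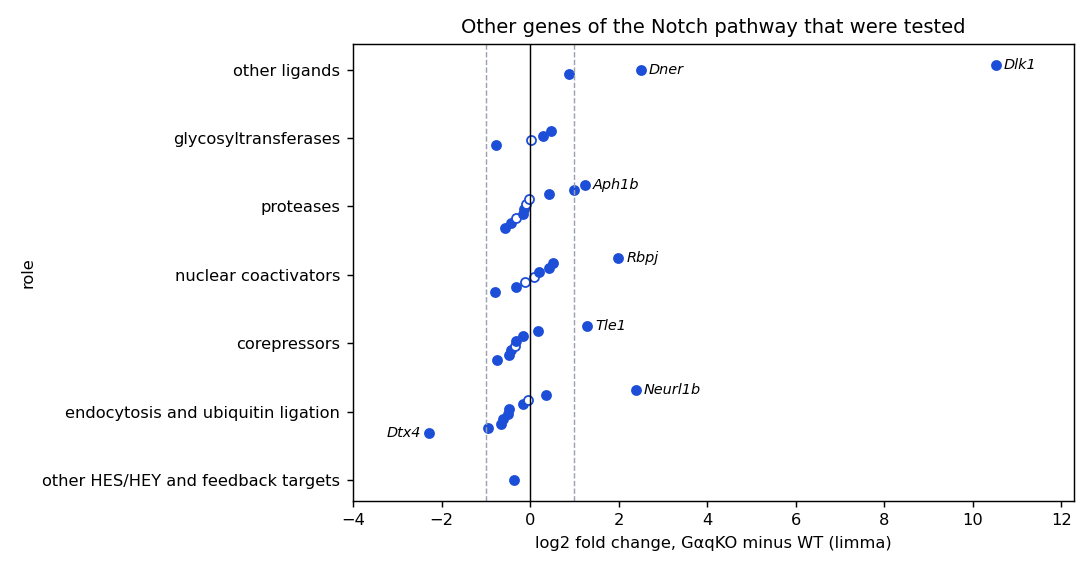
Log2 fold change, GαqKO minus WT, of the 44 tested other pathway genes by role; filled points passed an adjusted p under 0.05 in limma, open points did not, and dashed lines mark -1 and 1. Rbpj, Tle1, Neurl1b, Aph1b, Dner and Dlk1 lie to the right of 1 and Dtx4 to the left of -1; the position of Dlk1 depends on the pseudocount because its WT values are 0.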

How the data were processed

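The authors made poly-A selected libraries from total RNA, sequenced them as paired-end reads, mapped them to GRCm39 (Rbowtie2), obtained gene counts by featureCounts (GENCODE M32) and used DESeq2 in R. The submitters' processing notes name featureCounts and GRCm39. Tool versions and the strand and overlap settings are not given in the sources used here. The deposited values are a signal, namely normalized counts: gene counts divided by 1 size factor per library. In 5 libraries all values were whole multiples of 1 read (within 0.01 read), which gave the reads, and those of GαqKO replicate 3 were not used.

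Symbols and coordinates came from GENCODE M39, which matched 56310 of 56953 identifiers. limma with a trend was fitted to log2(normalized count + 1) over the 14096 genes that reached 10 normalized counts in 3 or more libraries, and p-values were adjusted by Benjamini-Hochberg. Fold changes on this scale understate those of low genes. The members and gene lists were chosen with earlier results of these data known. Named are all members, the other pathway genes past both thresholds and in each role the gene with the highest mean normalized count (not per length), with Gnaq, Gna11, Ddx3y and Xist as checks. Exceptions are stated where they occur. Promoters came from RefSeq (GRCm38.p6), and their 250 bases before the start were used. Same-numbered libraries of the 2 groups were not taken as pairs. Chi-square per gene between replicates was 2.44 to 5.50 in the pairs with recovered reads. Floors cover counting error only. Alternatives covered scaling, filter, pseudocount, replicate block, prior spread, each library left out, and edgeR and DESeq2 on the recovered reads of 5 libraries. The fits were tested on simulated data. Tools were Python 3.11.15, numpy 2.4.6, pandas 2.3.3, scipy 1.17.1, matplotlib 3.10.9, R 4.3.3, limma 3.58.1, edgeR 4.0.16 and DESeq2 1.42.0.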

Additional observations from a re-analysis of the deposited data

How the results depend on the processing

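Of 342 values for 23 results under the alternatives, 335 kept their side of the threshold (for counts, stayed within 1.5 times), and 0 called values reversed. Notch3, which passed in none of the fits, turned sign in 2 of them (without GαqKO replicate 2 or 3). Notch4, Dlk1 and Dner gave no value when all 6 libraries had to reach 10 normalized counts. Notch2, at a log2 fold change of 0.24, no longer passed in limma without a trend (adjusted p = 0.0703), and Dner, at 2.50, did not either (adjusted p = 0.0593). The number of other pathway genes past both thresholds in the lower direction went from 1 to 2 with no filter and with DESeq2 on recovered reads, Hey2 being the added gene in both, and was 1 to 2 with a library left out (Hes7 added without WT replicate 1, Neurl1a without WT replicate 3 or GαqKO replicate 1). In the higher direction it went from 6 to 4 when all 6 libraries had to reach 10 normalized counts, which removes Dlk1 and Dner, to 5 in limma without a trend, and to 6 to 7 with a library left out. The genes added in the lower direction were chosen after their values were seen. Leaving out each library gave log2 fold changes of -0.998 to -0.851 for Notch1, 0.19 to 0.33 for Notch2, -0.08 to 0.46 for Notch3, -0.68 to -0.15 for Notch4, 0.42 to 0.55 for Jag1, -5.43 to -5.02 for Jag2, -1.23 to -1.11 for Hes1 and 2.49 to 2.68 for Hey1. Over all genes, 1432 higher and 1486 lower past both thresholds became 831 and 765 when all 6 libraries had to reach 10 normalized counts, where fewer genes (12054) were tested. Same-numbered WT and GαqKO libraries had deviations correlated at -0.045, -0.148 and -0.064, so the numbers do not pair them. With a replicate block 3 members were higher and 3 lower as before, other pathway genes went to 15 higher and 18 lower, and 8962 genes passed the adjusted p against 9279. No count test covers all 6 libraries.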
